A study of Mus musculus with 6 samples.

Results

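Mitochondrial fatty acid oxidation is represented here by 31 genes, chosen by name for the steps that bring a fatty acid into the mitochondrion and break it down. All 31 were found by gene symbol, among 21730 genes with at least 1 read. Brown fat was taken from 6 male wild type mice of the strain C57BL/6N, 20 weeks old, and 1 library was made from each mouse. The 3 cold mice (numbers 4, 11 and 15) had spent 24 h at 4 °C, singly housed, and the 3 ctrl mice (numbers 2, 9 and 14) had been kept at 22 to 24 °C. The labels do not say whether the ctrl mice were also housed singly, and if they were not, housing and temperature cannot be told apart. Poly(A) RNA of the interscapular depot was read as long, unamplified cDNA molecules on a nanopore sequencer, 2 flow cells per library, and reads were counted per annotated transcript. In what follows a level is given in CPM, reads scaled to a common library size, a change is the log2 fold change of cold over ctrl with its standard error, and a gene is called where its adjusted p from edgeR's quasi-likelihood test over all genes is under 0.05.

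In beta-oxidation, a fatty acid is first bound to coenzyme A, passed to carnitine to cross the inner mitochondrial membrane, and bound to coenzyme A again inside. A cycle of dehydrogenation, hydration, another dehydrogenation and thiolytic cleavage then shortens the chain and releases acetyl-CoA, with separate enzymes for long, medium and short chains. In brown fat this pathway feeds the respiratory chain whose proton gradient uncoupling protein dissipates as heat. The entry step, carnitine palmitoyltransferase of the outer membrane, is inhibited by malonyl-CoA, the intermediate of fatty acid synthesis.

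The libraries held 2082203, 1982292 and 1657985 reads in cold mice 4, 11 and 15, against 1829442, 1989224 and 2238056 in ctrl mice 2, 9 and 14, and 3 reads corresponded to 1.34 to 1.81 CPM. Ucp1, the uncoupling protein that marks brown fat, stood at 13875, 13665 and 13889 CPM in cold mice and at 11228, 9699.8 and 11069 CPM in ctrl mice. Of 12 brown adipocyte markers tested, Ucp1 among them, 5 were higher and 1 lower, with a median change of 0.069. Of 7 general adipocyte markers tested, 2 were higher and 2 lower, with a median change of -0.11. The 16 skeletal muscle markers summed to 394, 1694 and 4164 CPM in cold mice 4, 11 and 15, against 201, 583 and 843 CPM in ctrl mice 2, 9 and 14. The groups overlapped in this sum, and of the 14 muscle markers that could be tested 0 were called by edgeR or by DESeq2, and 0 had an unadjusted p under 0.05. All 14 nevertheless had a positive change, with a median of 2.16. The sum averaged 2084 CPM in cold and 542 CPM in ctrl mice (exact two-sided permutation p = 0.3). With so wide a spread between mice, the absence of calls does not show equal muscle RNA in the groups. Endothelial markers summed to 229 to 234 CPM in cold and 183 to 194 CPM in ctrl mice, with 1 higher and 1 lower of 5 tested. Fibroblast markers summed to 208 to 267 CPM in cold and 247 to 293 CPM in ctrl mice, with 3 lower of 4 tested, and lymphocyte markers were near 0, at 1.0 to 2.3 CPM in cold and 2.0 to 6.5 CPM in ctrl mice. The part of endothelial cells and fibroblasts in the results was not tested. The share of mitochondrially encoded reads was 28.3% in cold and 31.0% in ctrl mice (exact two-sided permutation p = 0.1, the smallest that 3 against 3 allows), and leaving these reads out changed neither count of called genes among the 31.

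All 31 genes passed the filter on low counts, with 165 to 25095 reads each over the 6 libraries. After 24 h of cold, 7 were higher, 8 were lower and 16 were not called. Among all 8684 genes tested, 9.75% were higher and 9.77% were lower, so 19.5% were called in either direction. The median change of the 31 genes was -0.02 on the log2 scale, and that of all tested genes was 0.00090. In 20 of the 31 genes the values of the cold and ctrl mice did not overlap, against 35.1% of all tested genes. The summed level of the 31 genes was 18796 ± 695 CPM in cold and 19117 ± 824 CPM in ctrl mice (SD, n = 3 each), a difference smaller than the spread between mice. As a share of all reads the genes made up 1.90% in cold and 1.84% in ctrl mice (exact two-sided permutation p = 0.3). The sum in CPM was thus slightly lower in cold and the share slightly higher. CPM, unlike the share, includes the scaling factors of the libraries. These were 1.006, 1.02 and 1.051 in cold mice 4, 11 and 15, and 0.956, 0.998 and 0.9721 in ctrl mice 2, 9 and 14. In tissue RNA of this kind, fewer cells of a type and less RNA per cell cannot be told apart.

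The calls ran in different directions in different steps. The carnitine acyltransferases taken with Mlycd, which removes an inhibitor of carnitine palmitoyltransferase 1, had 4 genes higher and none lower of 6, with a median change of 0.49. The acyltransferases alone had 3 higher and none lower of 5 (median 0.42). The enzymes that finish medium and short chains had 4 lower and none higher of 5, with a median of -0.39. Between them, the acyl-CoA dehydrogenases had 1 higher of 8 (median -0.0075) and the trifunctional protein had 0 called of 2 (median 0.04). Of the 3 electron transfer genes 1 was higher (median 0.18), of the 3 auxiliary enzymes for unsaturated chains 2 were lower (median -0.24), and of the 3 genes of propionyl-CoA disposal 1 was higher and 1 lower (median -0.16). Summed, the acyltransferases and Mlycd stood at 1298, 1407 and 1311 CPM in cold mice, against 1023, 900.2 and 1066 CPM in ctrl mice. The medium and short chain enzymes summed to 3662, 3706 and 3372 CPM in cold mice, against 4622, 4387 and 4489 CPM in ctrl mice. Neither sum overlapped between the groups, and they lay on opposite sides.

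**Figure D1:**
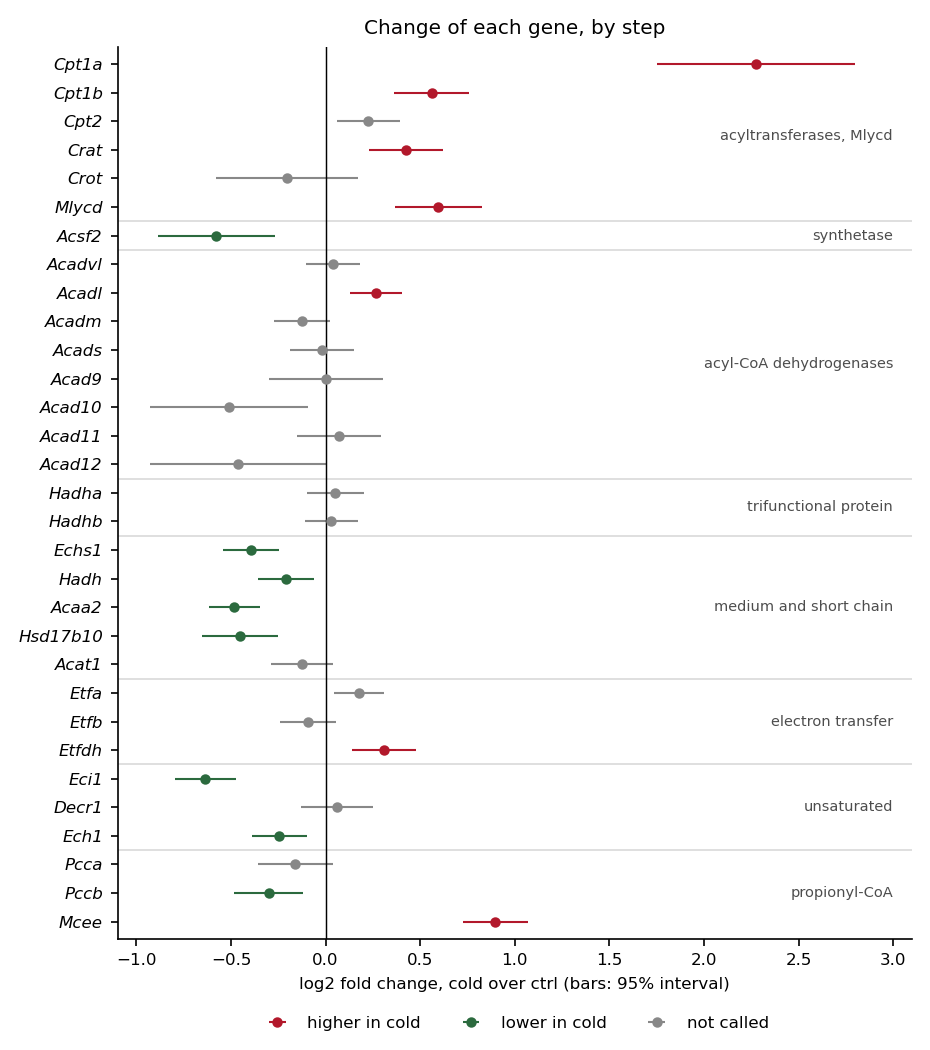
Log2 fold change of cold over ctrl for each of the 31 genes, in rows grouped by step, with the 95% interval as a bar; red genes were higher in cold, green genes lower, grey genes not called. The 4 red genes among the acyltransferases and Mlycd lie between 0.42 and 2.27, and the 4 green genes of the medium and short chain enzymes lie between -0.48 and -0.21.

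Start regions are shown for 3 genes that were higher (Cpt1a, Mlycd and Mcee), for Eci1, which had the largest fall, and for the interval between Hadhb and Hadha, which were not called, so that the sequence in front of genes of each kind can be compared. Promoter windows of RefSeq on GRCm38.p6 were found for 25 of the 31 genes; Cpt1b, Crat, Acad9, Acaa2, Acat1 and Decr1 had none and are named only. The part before the RefSeq start that lies in no annotated exon is printed 5′ to 3′ on the strand of the gene. For Cpt1a this part lies inside the annotated gene, which starts at base 3322334 of chromosome 19. Capitals mark AGGTCA (a nuclear receptor half-site), CCAAT (the CCAAT box) and GGGCGG (the GC box) on either strand, where the whole match is printed. In Cpt1a a CCAAT match at position -19 from the start runs past the end of the printed part and is not marked. In Mlycd a pair of CCAAT matches on opposite strands adjoin each other.
Cpt1a, chr19:3323051-3323284, plus strand: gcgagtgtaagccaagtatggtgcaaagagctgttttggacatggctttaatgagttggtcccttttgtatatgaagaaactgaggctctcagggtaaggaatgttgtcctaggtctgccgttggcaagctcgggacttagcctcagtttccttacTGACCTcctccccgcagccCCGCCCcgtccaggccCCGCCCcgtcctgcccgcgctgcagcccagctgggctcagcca
Mlycd, chr8:119394644-119394877, plus strand: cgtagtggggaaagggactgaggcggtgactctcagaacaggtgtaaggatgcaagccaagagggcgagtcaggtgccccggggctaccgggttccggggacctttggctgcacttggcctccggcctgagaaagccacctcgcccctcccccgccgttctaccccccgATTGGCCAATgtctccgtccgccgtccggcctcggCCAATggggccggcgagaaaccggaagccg
Mcee, chr7:64392372-64392606, plus strand: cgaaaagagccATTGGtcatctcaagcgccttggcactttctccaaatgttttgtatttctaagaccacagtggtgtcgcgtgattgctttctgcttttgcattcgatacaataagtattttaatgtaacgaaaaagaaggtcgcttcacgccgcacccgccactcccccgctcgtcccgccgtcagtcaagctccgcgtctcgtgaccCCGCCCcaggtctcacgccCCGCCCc
Eci1, chr17:24426433-24426640, plus strand: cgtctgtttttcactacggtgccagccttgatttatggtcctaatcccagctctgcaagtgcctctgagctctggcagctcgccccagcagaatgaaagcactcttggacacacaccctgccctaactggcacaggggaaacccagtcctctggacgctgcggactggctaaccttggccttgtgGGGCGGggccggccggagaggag
Hadhb, chr5:30155163-30155247, plus strand: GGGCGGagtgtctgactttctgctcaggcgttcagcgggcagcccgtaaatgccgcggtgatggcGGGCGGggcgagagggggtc

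Over windows from 250 bases before to 50 after the start, searched on both strands, GGGCGG was present in 18 of the 25 (72.0%), against 35.66% of all 32851 windows. CCAAT was present in 11 (44.0%), against 37.41% of all windows, and AGGTCA in 5 (20.0%), against 16.26%. The core motif recognised by nuclear respiratory factor NRF1 was in 5 (20.0%), those of Acad10, Acad12, Etfb, Etfdh and Pccb, against 4.6% of all windows. Acad10 and Acad12 are neighbours whose transcripts share sequence, and their windows hold the same matched sequences. They may therefore not be separate occurrences. TGACGTCA, the cAMP response element, was in none of the 25, against 1.79% of all windows. By direction, GGGCGG was in 4 of the 5 windows of genes that were higher, 6 of the 7 of genes that were lower and 8 of the 13 of genes not called. The 32851 windows were not limited to genes expressed in brown fat. Whether the 25 windows differ from those of other expressed genes was therefore not tested. Of the 25 windows, 22 started within 100 bases of the start of the most-read transcript. For Hadha, Crot and Ech1 the distance was 182, 178 and 121 bases. A match is a run of letters and no evidence that a factor binds there.

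Carnitine palmitoyltransferase 1, which puts long-chain acyl groups on carnitine, exists in a liver form, Cpt1a, and a muscle form, Cpt1b, which brown fat also uses. Cpt1a (ENSMUSG00000024900.5, chr19:3322334-3385733 of GRCm38) had the largest change of the 31 genes. It stood at 24.2, 30.6 and 36.1 CPM in cold mice 4, 11 and 15, against 4.63, 5.10 and 8.38 CPM in ctrl mice 2, 9 and 14; per-mouse values keep this order of mice throughout. Every cold mouse was far above every ctrl mouse, and the change was 2.27 ± 0.25 (adjusted p = 9.88e-07), a 4.84-fold rise. It rested on few reads, 50, 61 and 62 in cold mice and 8, 10 and 18 in ctrl mice. Within each group the order of Cpt1a levels was the order of the muscle sums given above. With the mean log2 level of the muscle markers as a covariate the change was 1.96 (adjusted p = 2.3e-05), and over 17 alternative fits the adjusted p was at most 0.000319. The start region printed for Cpt1a holds the only AGGTCA match among the printed sequences. Among all 25 windows, however, AGGTCA was also in that of Echs1, which was lower. It was in those of Acadvl, Acadm and Pcca as well, which were not called.

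Cpt1b (ENSMUSG00000078937.8, chr15:89416405-89425863) was the main form in both groups. It rose to 398, 413 and 368 CPM in cold mice, against 286, 221 and 293 CPM in ctrl mice, without overlap (0.56 ± 0.10, adjusted p = 0.000253). Among cold mice the one with the most muscle RNA, number 15, had the least Cpt1b, and among ctrl mice the one with the most, number 14, had the most Cpt1b. With the muscle covariate the change was 0.62 (adjusted p = 0.000806). Cpt1a made up 5.73%, 6.88% and 8.93% of the reads of both forms in cold mice, against 1.59%, 2.26% and 2.78% in ctrl mice. The exact binomial 95% intervals, which cover counting error only, ran from 4.28 to 7.48%, 5.31 to 8.76% and 6.92 to 11.3% in cold mice, against 0.689 to 3.11%, 1.09 to 4.11% and 1.66 to 4.36% in ctrl mice. The share of the liver form was thus higher in every cold mouse, although it stayed the minor form. Per kilobase of its most-read transcript, Cpt1a averaged 7.01 CPM in cold and 1.40 CPM in ctrl mice, while Cpt1b averaged 136 CPM in cold and 92.1 CPM in ctrl mice. If each long read stands for 1 molecule, values per kilobase here and below understate long transcripts and overstate short ones.

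Cpt1b shares 2744 exonic bases on the same strand with the annotated gene Gm44502, and how reads that match both were assigned is not given in the sources used here. Gm44502 held 1743 reads beside the 3837 of Cpt1b, and was higher as well, at 185 ± 6.96 CPM in cold and 116 ± 17.5 CPM in ctrl mice (0.68 ± 0.10, adjusted p = 5.86e-05). Counted as 1 gene, the pair stood at 578 ± 20.2 CPM in cold and 382 ± 57.1 CPM in ctrl mice, with a change of 0.60 ± 0.09 (adjusted p = 9.12e-05). Cpt1b was thus called higher alone and together with the gene it overlaps. The shares of Cpt1a given above leave out the reads of Gm44502, and counting these with Cpt1b would lower the share in every mouse.

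Of Mlycd and the remaining acyltransferases, Mlycd and Crat were called. Malonyl-CoA decarboxylase, Mlycd (ENSMUSG00000074064.6, chr8:119394878-119411102), removes the inhibitor of carnitine palmitoyltransferase 1. It rose to 129, 148 and 148 CPM in cold mice, against 111, 86.2 and 84.2 CPM in ctrl mice (0.60 ± 0.11, adjusted p = 0.000493), and the lowest cold mouse was above the highest ctrl mouse. Crat, carnitine acetyltransferase, exchanges short acyl groups and acetyl units between coenzyme A and carnitine. Its levels were 330.0, 371 and 347 CPM in cold mice and 279, 220.0 and 282 CPM in ctrl mice, again without overlap (0.42 ± 0.093, adjusted p = 0.00226). On flow cell 2 alone its adjusted p was 0.0519, the highest of 17 alternative fits, whose lowest was 4.73e-05. Cpt2, which returns the long chain to coenzyme A inside the inner membrane, had 393, 425 and 388 CPM in cold mice and 316, 345 and 369 CPM in ctrl mice. Its groups did not overlap, but the change of 0.23 ± 0.08 was not called (adjusted p = 0.0528); without cold mouse 15 it was (0.0458), with a range of 0.0443 to 0.288 over the alternatives. Crot, the octanoyltransferase of peroxisomes that hands medium chains to carnitine, had 22.9 ± 2.89 CPM in cold and 26.2 ± 4.03 CPM in ctrl mice, and its 95% interval for the change ran from -0.58 to 0.17.

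**Figure D2:**
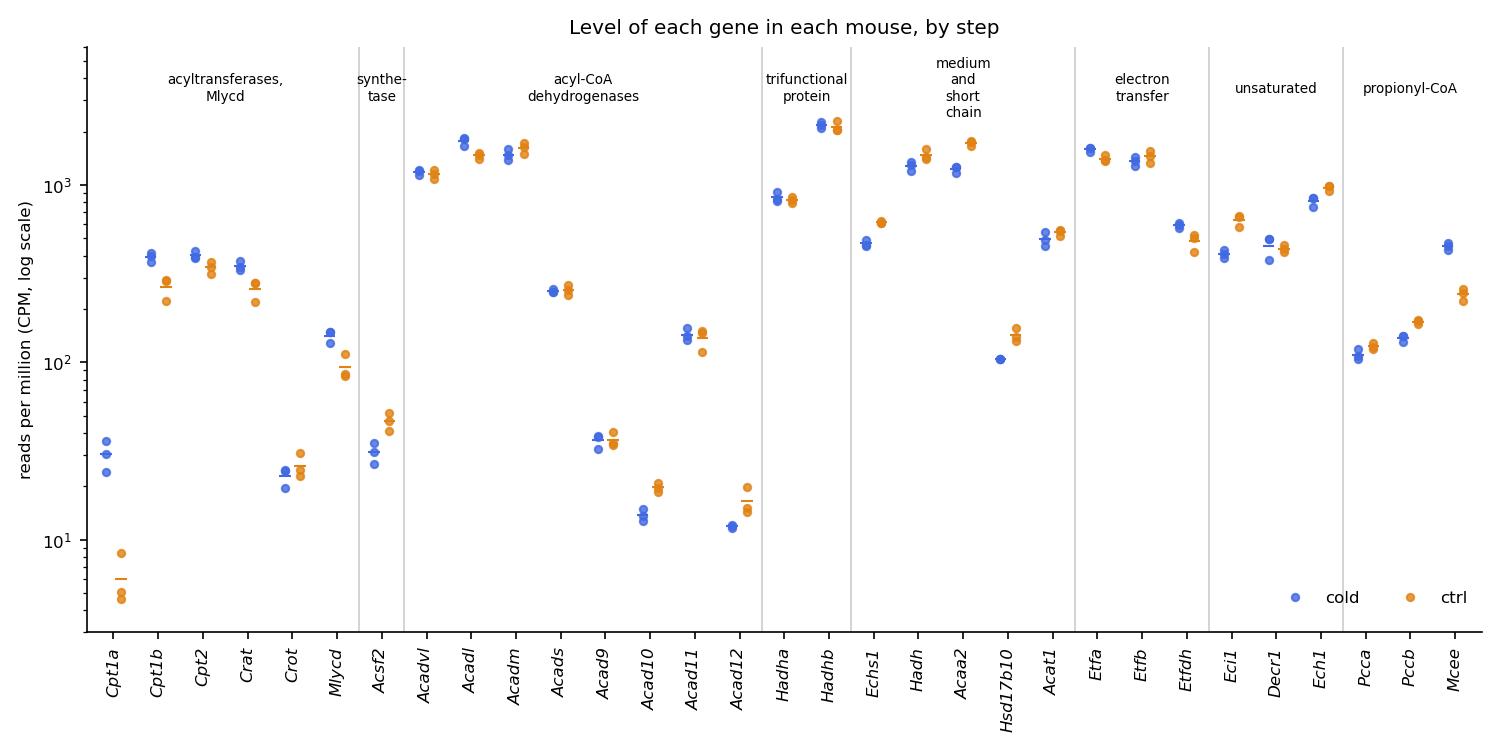
Level of each gene in each mouse in CPM on a log scale, cold mice in blue and ctrl mice in orange, with the group mean as a short line; genes are grouped by step. Cpt1a is the gene with the widest gap, with cold mice between 24.2 and 36.1 CPM and ctrl mice between 4.63 and 8.38 CPM.

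Activation of fatty acids is mostly the work of long-chain synthetases outside the matrix. Acsf2, a mitochondrial acyl-CoA synthetase of medium chains, was the only synthetase among the 31 genes. It fell to 31.4, 35.1 and 26.8 CPM in cold mice, against 41.1, 52.1 and 46.5 CPM in ctrl mice (-0.58 ± 0.15, adjusted p = 0.00773), and the groups did not overlap. Its call was lost with DESeq2 (adjusted p = 0.147, the highest of 17 alternative fits, whose lowest was 0.00426).

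The first step of each cycle is made by acyl-CoA dehydrogenases of different chain length, flavoproteins that pass electrons to the electron transfer flavoprotein. Acadl, the long-chain enzyme (ENSMUSG00000026003.5, chr1:66830839-66863277), was the only one of the 8 called. Its levels were 1812, 1839 and 1655 CPM in cold mice and 1517, 1406 and 1484 CPM in ctrl mice, with the lowest cold mouse above the highest ctrl mouse (0.27 ± 0.067, adjusted p = 0.00604). Acadvl, the very-long-chain enzyme of the inner membrane, had 1195, 1209 and 1134 CPM in cold mice and 1154, 1075 and 1215 CPM in ctrl mice. The 2 groups overlapped, and the 95% interval of the change ran from -0.10 to 0.18. Acadvl shares 1151 exonic bases on the opposite strand with Dvl2, which held 1543 reads beside 13549, and whether strand was used in counting is not given.

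Acadm, the medium-chain enzyme, had 1469, 1588 and 1380.0 CPM in cold mice and 1715, 1493 and 1634 CPM in ctrl mice, with overlap and a change of -0.13 ± 0.072 (adjusted p = 0.249). Acads, the short-chain enzyme, had 251, 259 and 249 CPM in cold mice and 256, 239.9 and 273 CPM in ctrl mice, and its 95% interval ran from -0.19 to 0.15. By read number, the more abundant of the long-chain and medium-chain enzymes differed between the groups. Acadl reads were 1.23, 1.16 and 1.20 times those of Acadm in cold mice, against 0.885, 0.942 and 0.909 times in ctrl mice. This ratio is taken within a mouse, so it does not depend on library scaling, and it lay above 1 in each cold mouse and below 1 in each ctrl mouse. Per kilobase of most-read transcript, Acadl averaged 923 CPM in cold and 767 CPM in ctrl mice, and Acadm averaged 723 CPM in cold and 788 CPM in ctrl mice. On this scale Acadl was above Acadm in every cold mouse, but also in ctrl mouse 9 (734 against 729 CPM per kilobase).

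The remaining 4 dehydrogenases were less abundant. Acad9, which also acts in the assembly of respiratory complex I, had 36.4 ± 3.33 CPM in cold and 36.5 ± 3.37 CPM in ctrl mice (adjusted p = 0.985). Acad11 had 143 ± 12.0 CPM in cold and 137 ± 19.5 CPM in ctrl mice (adjusted p = 0.714). Acad10 and Acad12 lie next to each other on chromosome 5, and 933 bases of an Acad10 transcript matched Acad12 at 97.7% identity, so their reads may be split uncertainly. Acad10 had 15.0, 13.5 and 12.8 CPM in cold mice and 19.7, 20.9 and 18.6 CPM in ctrl mice, and Acad12 had 12.1, 12.0 and 11.6 CPM in cold mice and 15.0, 19.9 and 14.4 CPM in ctrl mice. Neither pair of groups overlapped, and neither gene was called (adjusted p = 0.0816 and 0.164). Summed as 1 gene, a choice made after the data were seen, the pair had 25.7 ± 1.31 CPM in cold and 36.2 ± 4.10 CPM in ctrl mice and was called lower (-0.49 ± 0.16, adjusted p = 0.0306).

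For long chains, the next 3 reactions belong to the trifunctional protein of the inner membrane, whose alpha subunit Hadha carries the hydratase and hydroxyacyl-CoA dehydrogenase and whose beta subunit Hadhb carries the thiolase. Hadha had 833, 917 and 808 CPM in cold mice and 819, 789 and 861 CPM in ctrl mice. Hadhb had 2089, 2277 and 2166 CPM in cold mice and 2042, 2054 and 2305 CPM in ctrl mice. Both overlapped between the groups, with 95% intervals of the change from -0.10 to 0.20 for Hadha and from -0.11 to 0.17 for Hadhb; 0 of the 2 genes had an unadjusted p under 0.05 or a call with DESeq2. The ratio of Hadha to Hadhb reads was 0.399, 0.403 and 0.373 in cold mice and 0.401, 0.384 and 0.374 in ctrl mice, which overlapped. The genes start in opposite directions from either side of the 85 bases printed for Hadhb.

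Among the soluble matrix enzymes that take over the same reactions for medium and short chains, Acaa2, Echs1, Hsd17b10 and Hadh were lower. Acaa2 (ENSMUSG00000036880.10, chr18:74779197-74806208), the ketoacyl-CoA thiolase of medium chains, fell to 1260.5, 1268 and 1165 CPM in cold mice, against 1761, 1656 and 1744 CPM in ctrl mice (-0.48 ± 0.066, adjusted p = 1.51e-05). Echs1 (ENSMUSG00000025465.13, chr7:140105710-140116476), the short-chain enoyl-CoA hydratase, fell to 459.9, 491 and 454 CPM in cold mice, against 612, 608 and 624 CPM in ctrl mice (-0.39 ± 0.071, adjusted p = 0.000368). For both genes the highest cold mouse was well below the lowest ctrl mouse. Echs1 shares 142 exonic bases on the opposite strand with Paox, which held 442 reads beside 6303. Hsd17b10, a hydroxyacyl-CoA dehydrogenase that also serves as a subunit of mitochondrial RNase P, had 104, 104 and 104 CPM in cold mice and 138, 132 and 157 CPM in ctrl mice (-0.45 ± 0.10, adjusted p = 0.00187). Its cold mice lay closer together than those of any other gene of this step. The change was -0.27 on flow cell 1 (adjusted p = 0.111) and -0.89 on flow cell 2, and the adjusted p ranged from 2.09e-05 to 0.111 over the alternatives.

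Hadh, the hydroxyacyl-CoA dehydrogenase of medium and short chains, had 1345, 1300.0 and 1196 CPM in cold mice and 1594, 1442 and 1408 CPM in ctrl mice. Its change of -0.21 ± 0.07 was close to the threshold (adjusted p = 0.0401) and was no longer called in 10 of 17 alternative fits, whose adjusted p ranged from 0.00791 to 0.463. With the muscle covariate the change was -0.11 (adjusted p = 0.463). The call was lost without cold mouse 4 (0.0547), 11 (0.082) or 15 (0.143), and without ctrl mouse 2 (0.217) or 14 (0.0583). Acat1, the acetoacetyl-CoA thiolase that also serves ketone and isoleucine breakdown, had 495 ± 44.1 CPM in cold and 540.3 ± 20.7 CPM in ctrl mice and was not called (-0.12 ± 0.078, adjusted p = 0.297).

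The medium and short chain enzymes were also set against their long-chain counterparts within each mouse. Hadhb reads were 1.66, 1.80 and 1.86 times those of Acaa2 in cold mice, against 1.16, 1.24 and 1.32 times in ctrl mice. Hadha reads were 1.81, 1.87 and 1.78 times those of Echs1 in cold mice, against 1.34, 1.30 and 1.38 times in ctrl mice. For the dehydrogenase step the gap was narrower, with Hadha to Hadh at 0.619, 0.706 and 0.675 in cold mice and 0.514, 0.547 and 0.611 in ctrl mice. The 3 ratios were higher in every cold mouse than in any ctrl mouse, the last by a small margin. No test was made on the ratios, since they were chosen with the single-gene results known.

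**Figure D3:**
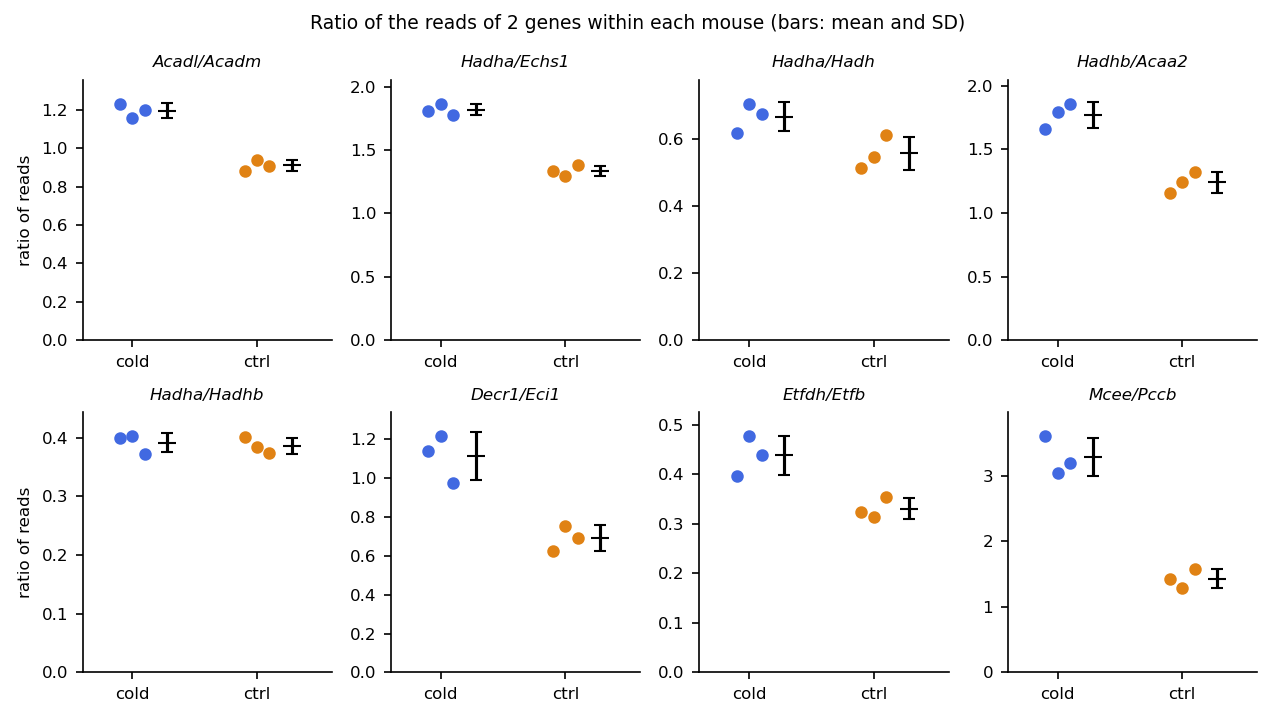
Ratio of the reads of a pair of genes within each mouse, 3 cold mice in blue and 3 ctrl mice in orange, with mean and SD as black bars; every vertical axis starts at 0. Long-chain to medium- or short-chain pairs are higher in cold, as in Hadhb to Acaa2 with 1.66 to 1.86 in cold and 1.16 to 1.32 in ctrl mice, while the ratio of the trifunctional subunits Hadha to Hadhb overlaps.

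Electrons from the dehydrogenases reach ubiquinone through the electron transfer flavoprotein, a dimer of Etfa and Etfb, and its membrane dehydrogenase Etfdh. Etfdh rose to 574, 614 and 598 CPM in cold mice, against 505, 419 and 519 CPM in ctrl mice, without overlap (0.31 ± 0.082, adjusted p = 0.00983). Its call was lost with the muscle covariate (0.30, adjusted p = 0.0578) and without ctrl mouse 9, the lowest of the group (0.21, adjusted p = 0.0818); the lowest adjusted p of the alternatives was 0.0028. Etfa had 1613, 1618 and 1544 CPM in cold mice and 1388, 1369 and 1469.9 CPM in ctrl mice, separated but not called (adjusted p = 0.0595), though called without cold mouse 15 (0.044; range 0.044 to 0.185). Etfb had 1446, 1284 and 1360.2 CPM in cold mice and 1559, 1338 and 1467 CPM in ctrl mice, which overlapped (adjusted p = 0.411). The subunits of the dimer therefore had changes of opposite sign, 0.18 for Etfa and -0.093 for Etfb, neither of them called. Per kilobase of most-read transcript Etfb and Etfa ranked highest of the 31 genes, with 1527 CPM in cold and 1629 CPM in ctrl mice for Etfb. This ranking depends on the division by length. By reads alone Hadhb ranked highest, with 25095 against 16361 for Etfb, whose most-read transcript has 893 bases.

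Double bonds of unsaturated chains are moved or reduced by auxiliary enzymes. Eci1 (ENSMUSG00000024132.6, chr17:24426641-24439348), the enoyl-CoA isomerase, had the largest fall of the 31 genes. It fell to 432, 406 and 389.5 CPM in cold mice, against 669, 581 and 660.3 CPM in ctrl mice (-0.64 ± 0.078, adjusted p = 3.57e-06), and the highest cold mouse was below the lowest ctrl mouse by more than the whole range of the cold mice. Ech1, a dienoyl-CoA isomerase, had 849, 844 and 753 CPM in cold mice and 991, 926 and 983 CPM in ctrl mice. Its change of -0.24 ± 0.071 was called (adjusted p = 0.0172), but not in 7 of 17 alternative fits, among them the muscle covariate (-0.18, adjusted p = 0.199; lowest 0.0109). The call was lost without cold mouse 15 (0.0787) and without ctrl mouse 2 (0.078) or 14 (0.0781). Decr1, the dienoyl-CoA reductase, had 456 ± 65.6 CPM in cold and 438 ± 20.9 CPM in ctrl mice and was not called (adjusted p = 0.715). Decr1 reads were 1.14, 1.22 and 0.976 times those of Eci1 in cold mice, against 0.623, 0.755 and 0.694 times in ctrl mice, and the ratio was higher in every cold mouse.

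Odd-numbered and some branched chains end in propionyl-CoA, which propionyl-CoA carboxylase (alpha subunit Pcca, beta subunit Pccb) and methylmalonyl-CoA epimerase (Mcee) pass towards succinyl-CoA. Mcee (ENSMUSG00000033429.10, chr7:64392607-64412125) rose to 472, 430.3 and 452 CPM in cold mice, against 246, 220.5 and 260.1 CPM in ctrl mice. The groups were far apart, and the 1.86-fold change (0.90 ± 0.082) had the lowest adjusted p of the 31 genes, 6.52e-08. Pccb had 131, 141 and 141 CPM in cold mice and 174, 171 and 165 CPM in ctrl mice, lower without overlap (-0.30 ± 0.089, adjusted p = 0.0193), but not called in 6 of 17 alternative fits, among them the muscle covariate (-0.32, adjusted p = 0.0675; range 0.015 to 0.2), and the fits without cold mouse 4 (0.0954) or ctrl mouse 2 (0.0659). Pcca had 111 ± 6.81 CPM in cold and 124 ± 4.56 CPM in ctrl mice and was not called (-0.16 ± 0.10, adjusted p = 0.276). Pcca shares 241 exonic bases on the opposite strand with Ggact, which held 153 reads beside 1358. Mcee reads were 3.61, 3.05 and 3.20 times those of Pccb in cold mice, against 1.42, 1.29 and 1.58 times in ctrl mice, so the epimerase and the beta subunit, both called, had changes of opposite sign.

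Of the 15 called genes, 8 were called in all 17 alternative fits as well: Cpt1a, Cpt1b, Mlycd, Acadl and Mcee, which were higher, and Echs1, Acaa2 and Eci1, which were lower. Among the fits, the one with muscle markers as a covariate gave 6 genes higher and 5 lower, and the lost calls were Hadh, Etfdh, Ech1 and Pccb. Leaving out cold mouse 15 and ctrl mouse 2, the libraries with the most and the least muscle RNA, gave 7 higher and 5 lower, and the lost calls were Hadh, Ech1 and Pccb. In this fit the change was -0.10 for Hadh (adjusted p = 0.424), against -0.21 with all 6 mice, and -0.17 for Ech1 (adjusted p = 0.188), against -0.24. For Pccb it was -0.30 with and without the pair of mice, with an adjusted p of 0.0833 without them. Without ctrl mouse 2 alone, 7 were higher and 5 lower, and DESeq2 called 7 higher and 4 lower. Each library had also been counted on 2 flow cells, which repeats the sequencing but not the mouse. All 15 called genes had the same sign on both, as did 26 of the 31. The 5 that did not were Crot, Acads, Acad9, Acad12 and Decr1, none of them called. Calls were made from both flow cells together, so the agreement among called genes is no separate support for them.

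**Figure D4:**
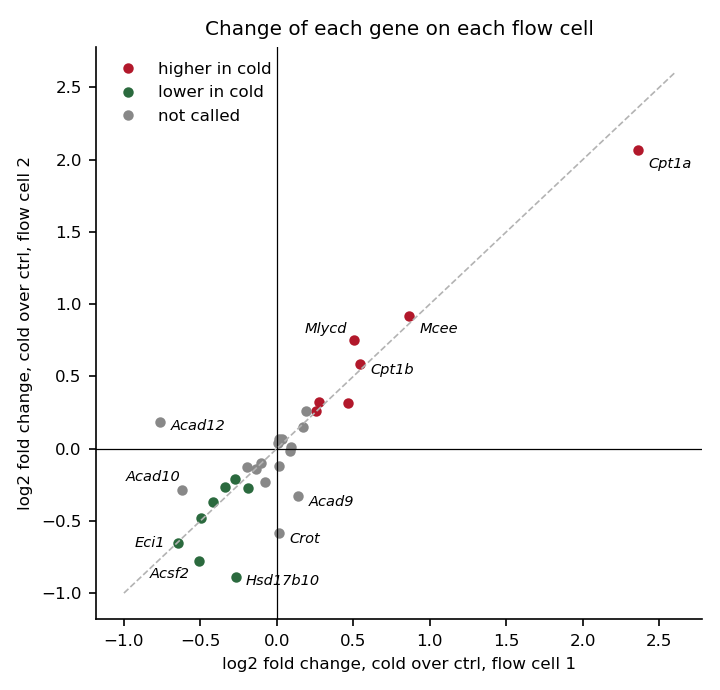
Log2 fold change of cold over ctrl from the first flow cell (horizontal axis) and from the second (vertical axis) for each of the 31 genes; the dashed line marks equal values. Red and green genes, called higher and lower from both flow cells together, fall in the upper right and lower left of the plot, with Cpt1a at 2.36 and 2.07.

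Reads were also counted for single transcripts. The 31 genes had 156 annotated transcripts with a read, of which 72 were tested, 10 were higher and 12 were lower; over all 11699 tested transcripts, 8.33% were higher and 7.95% lower. Without cold mouse 15 the lower ones numbered 7, also when ctrl mouse 2 was left out with it. With the exception of Acadm-206, the called transcripts had the direction of their genes. For Cpt1a the change was in Cpt1a-201, with 97.6 ± 2.12% of the reads of the gene in cold and 92.1 ± 6.85% in ctrl mice (2.36 ± 0.26, adjusted p = 1.03e-07). For Mcee all 3 tested transcripts were higher, with changes of 0.92 (Mcee-201), 0.88 (Mcee-203) and 0.56 (Mcee-204), and for Eci1 all 3 were lower, with changes of -0.61 (Eci1-205), -0.76 (Eci1-203) and -0.67 (Eci1-201). The other higher transcripts were Cpt1b-201, Crat-201, Crat-203, Mlycd-201, Acadl-201 and Etfdh-201. The other lower ones of protein-coding type were Acsf2-201, Echs1-201, Hadh-201, Acaa2-201, Acaa2-202, Hsd17b10-202 and Ech1-201. Echs1-205, annotated as a retained intron, made up 10.1 ± 0.53% of the reads of Echs1 in cold and 10.2 ± 1.25% in ctrl mice and was lower like the coding transcript (-0.42 ± 0.13, adjusted p = 0.0286).

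Acadm-206, a transcript annotated for nonsense-mediated decay, was lower although its gene was not called (-0.53 ± 0.18, adjusted p = 0.0412). It made up 1.76 ± 0.29% of the Acadm reads in cold and 2.31 ± 0.42% in ctrl mice. Changed proportions of transcripts were not called for any gene: of 20 with at least 2 tested transcripts, 0 were called by edgeR's diffSpliceDGE, where 0.195% of all 2568 genes tested were, and 0 had an unadjusted p under 0.05. The lowest unadjusted values were those of Acadm (0.0914) and Acaa2 (0.0947).

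Genes around the pathway were read from lists of related steps. Of all 8684 genes tested, 9.75% were higher and 9.77% lower, so 19.5% were called. Of the 8 tested genes of fatty acid activation and carnitine supply, 3 were higher and 3 lower. Acsl5, a long-chain acyl-CoA synthetase, rose to 642, 586 and 554 CPM in cold mice, against 312, 394 and 389 CPM in ctrl mice (0.70 ± 0.089, adjusted p = 7.08e-06). Slc22a5, the carnitine transporter of the cell membrane, stood at 62.2 ± 6.73 CPM in cold and 35.2 ± 5.73 CPM in ctrl mice (0.81 ± 0.14, adjusted p = 0.000269). Acsl3, another long-chain synthetase, fell to 11.6 ± 2.23 CPM in cold mice, against 27.2 ± 2.49 CPM in ctrl mice (-1.23 ± 0.20, adjusted p = 0.000153). The carnitine-acylcarnitine translocase of the inner membrane, Slc25a20, the link between Cpt1 and Cpt2, had 801 ± 57.1 CPM in cold and 699 ± 51.1 CPM in ctrl mice and was not called (adjusted p = 0.0737).

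Both acetyl-CoA carboxylases, which make malonyl-CoA, were lower. Acaca, the cytosolic form of lipogenic tissue, fell to 317, 329 and 189 CPM in cold mice, against 1052, 1191 and 994 CPM in ctrl mice (-1.95 ± 0.24, adjusted p = 0.00806). Acacb, the form at the outer mitochondrial membrane, fell to 297, 307 and 259.7 CPM in cold mice, against 413, 357 and 325 CPM in ctrl mice (-0.34 ± 0.093, adjusted p = 0.0118). Genes that make malonyl-CoA were thus lower while Mlycd, which removes it, was higher, and the cold and ctrl mice did not overlap in any of the 3 genes.

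Of 10 tested genes of peroxisomal oxidation reported here, 1 was higher and 1 lower, close to the 19.5% called among all genes. Scp2, a peroxisomal thiolase and sterol carrier, rose by 0.43 ± 0.068 (adjusted p = 9.82e-05), and Abcd2, an importer of very long chains, had a change of -1.55 ± 0.20 (adjusted p = 1.58e-05). Of 12 other mitochondrial acyl-CoA enzymes, 2 were higher and 2 lower. Acss1, the acetyl-CoA synthetase of the matrix, stood at 143 ± 6.94 CPM in cold and 67.1 ± 2.57 CPM in ctrl mice (1.09 ± 0.10, adjusted p = 6.33e-08). Acot2, a matrix thioesterase, was higher (0.49 ± 0.12, adjusted p = 0.00645), and Mmab, which prepares the cobalamin cofactor of methylmalonyl-CoA mutase, was lower (-0.52 ± 0.14, adjusted p = 0.0117). Flad1, which makes the flavin cofactor of the dehydrogenases, was the 1 gene higher of 5 for flavin supply and electron transfer factors (0.59 ± 0.13, adjusted p = 0.00294). The count for this list was also close to the share over all genes.

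Both tested ketone body genes reported here were higher. Bdh1, hydroxybutyrate dehydrogenase, had 32, 19 and 51 reads in cold mice and 0, 0 and 1 reads in ctrl mice, so that ctrl mice were at the limit of detection (adjusted p = 2.11e-05) and no fold is given. Oxct1, which activates acetoacetate, was higher (0.48 ± 0.10, adjusted p = 0.00179). Of 9 tested regulators of oxidation genes, 4 were higher and none lower. The coactivator Ppargc1a rose to 127, 126 and 137 CPM in cold mice, against 21.4, 26.0 and 29.3 CPM in ctrl mice (2.33 ± 0.13, adjusted p = 1.2e-11). The nuclear receptors Esrrg (1.24 ± 0.25, adjusted p = 0.00105) and Ppard (0.59 ± 0.21, adjusted p = 0.0498) were also higher, Ppard at the threshold. Ppara, the fatty acid receptor that controls many oxidation genes in mouse liver, had 52.3 ± 10.9 CPM in cold and 49.2 ± 7.99 CPM in ctrl mice and was not called (adjusted p = 0.805).

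**Figure D5:**
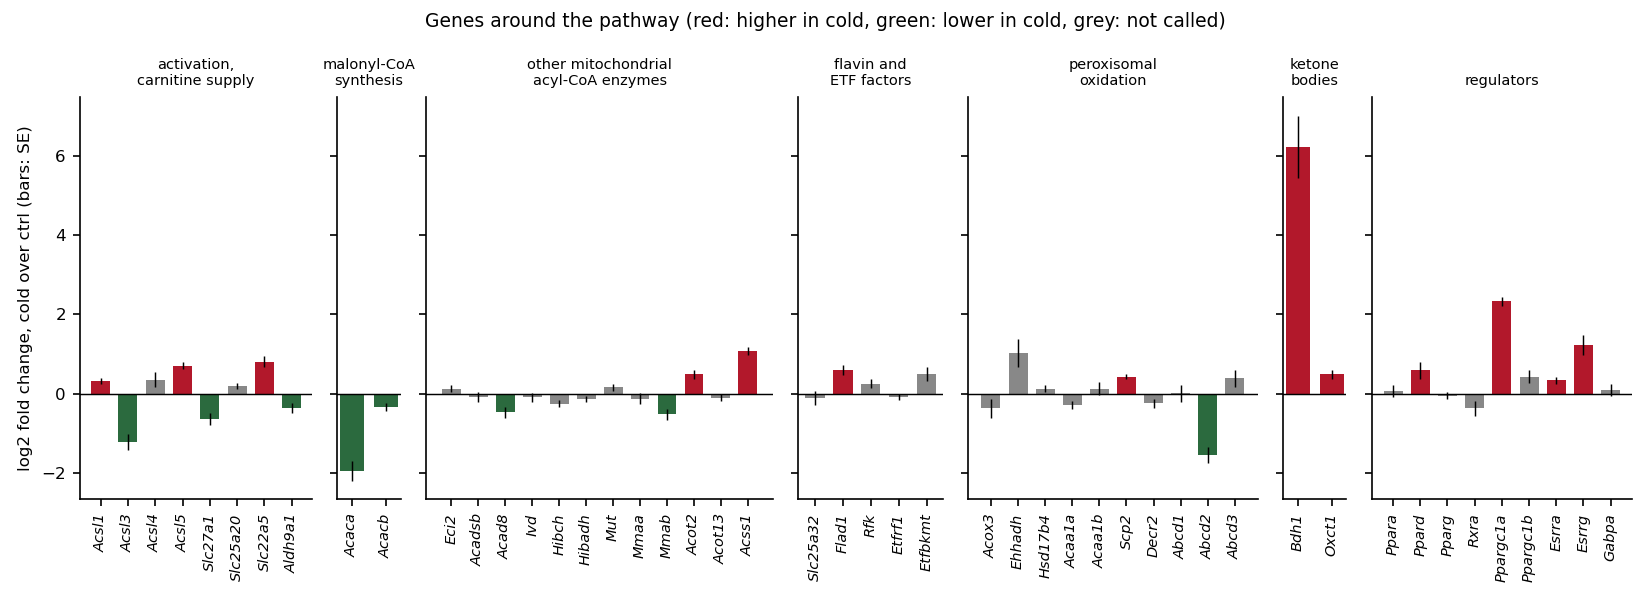
Log2 fold change of cold over ctrl with its standard error for the tested genes around the pathway that are reported here, one panel per list; red bars were called higher in cold, green bars lower, grey bars not called. Both malonyl-CoA synthesis genes lie below 0 and 4 of 9 regulators are called above it; the bar of Bdh1 rests on 1 read in the 3 ctrl mice, so its height depends on how the fit treats counts of 0.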

How the data were processed

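The files hold the authors' deposited counts of reads per transcript as whole numbers, without normalization, 2 tables (1 per flow cell) for each of 6 mice. Per the submitters' processing notes the reads were aligned with minimap2 to GRCm38; versions, the handling of reads that match several transcripts and the use of strand were not given in the sources used here. Per the labels' protocols, poly(A) RNA was selected in 2 rounds and 100 ng went into each PCR-free cDNA library. The homogenisation text of the labels names another fat depot, while the tissue fields name the interscapular one, which was followed.

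Transcripts were matched to GENCODE M21: 59371 of 59543 matched, and the 172 others, with 9857 of 11789059 reads (0.084%), were left out. Counts were summed over both flow cells and over the gene. Tests used edgeR 4.0.16 (TMM scaling, filterByExpr, robust quasi-likelihood F-test, all 6 libraries, no covariate) in R 4.3.3, with Benjamini-Hochberg adjustment over all tested genes, or over all tested transcripts, at 0.05; transcript usage used diffSpliceDGE with Simes p-values per gene. CPM divide reads by the scaled library total, and mean ± SD are over 3 mice. Alternatives were DESeq2 1.42.0, other scaling and filters, single flow cells, a skeletal muscle covariate and libraries left out. The fits were tested on simulated counts, with the same variability set for every gene. The simulated gene changes were larger than most of those reported here, so this does not show how well changes of the reported size are called. Tables and figures were made with Python 3.11.15, pandas 2.3.3, numpy 2.4.6 and matplotlib 3.10.9, and shared sequence was sought with minimap2 2.31.

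The members, the lists of related and marker genes and the tests were chosen with earlier results of these data known. The text accounts for every member, gives values per mouse for called members and the main enzyme of each step, and names up to 3 called genes of each related list by size of change; Slc25a20 and Ppara were added after their values were seen. Some genes of the related lists are not reported here, and the counts given for those lists leave them out.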

Additional observations from a re-analysis of the deposited data

How the results depend on the processing

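Over 17 alternative fits the 31 genes gave 473 values with the same direction and side of the threshold, 28 with a call lost, 6 with a call gained and 19 with the sign turned, the last all in genes that were never called. Of all genes, 429 were higher and 408 lower on flow cell 2 alone, 467 higher and 353 lower with DESeq2, 548 lower with the skeletal muscle covariate and 506 lower without cold mouse 15 and ctrl mouse 2 together. Lower member genes numbered 4 with DESeq2, and 5 both with the muscle covariate and without those 2 mice, where lower member transcripts numbered 7. Leaving out 1 mouse at a time gave 6 to 9 higher and 5 to 8 lower member genes, the 5 without ctrl mouse 2, and 7 to 10 higher and 7 to 11 lower member transcripts, the 7 lower without cold mouse 15; over all genes it gave 669 to 737 higher and 644 to 684 lower. The causes were not tested, though single flow cells and left-out mice give fewer reads or samples.

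Signs turned for Crot (0.015) and Acads (0.015) on flow cell 1, for Acad9 (-0.33), Acad12 (0.18) and Decr1 (-0.017) on flow cell 2, for Hadhb (-0.027) with the muscle covariate and for Acad9 (-0.034) with protein-coding transcripts only. With 1 mouse left out, the change ranged from -0.041 to 0.076 for Acad9, -0.0015 to 0.18 for Decr1, -0.0012 to 0.092 for Hadha, -0.0043 to 0.084 for Hadhb, -0.013 to 0.077 for Acadvl, -0.051 to 0.14 for Acad11 and -0.072 to 0.026 for Acads. Calls were lost most often for Hadh (10 fits), Ech1 (7) and Pccb (6), and gained for Cpt2, Etfa and Acad10 (2 each). Fits that sum overlapping genes or use the earlier edgeR method were chosen after the data were seen. No paired analysis was possible because the mouse numbers differ between the groups. Cpt1a, Acad10, Acad12 and Crot had 8 to 66 reads per library, which limits the precision of their changes.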
